A study of Homo sapiens with 9 samples.

Results

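The unfolded protein response and the integrated stress response were followed through 40 genes, chosen by symbol from a given list, in HaCaT cells, an immortal line grown from human skin keratinocytes. All 40 were present among the 21170 features of the count table, and all 40 were among the 13713 genes with enough counts to test. They were grouped by role into 5 sensors and transducers, 11 genes of the ATF4 arm, 9 amino acid genes, 11 chaperones of the endoplasmic reticulum (ER), and 4 genes of ER-associated degradation. Poly(A) RNA came from 3 groups of 3 libraries: HaCaT cells with an empty vector (Vector), with wild-type FTO (FTO), or with an FTO mutant whose demethylase activity is disrupted (mut-FTO). FTO is a dioxygenase that takes methyl groups off adenosines in RNA. The labels name no stress treatment. They give neither the promoter that drove the constructs nor the number of clones behind a group, so that the effect of a construct and other traits of the cells carrying it cannot be told apart. Nothing states that the 3 libraries of a group were separate cultures, and p-values therefore reflect the scatter among these samples only, which could be technical.

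When misfolded proteins build up in the ER, the membrane sensors PERK, IRE1 and ATF6 start the unfolded protein response. IRE1 splices the messenger of the transcription factor XBP1, which with cleaved ATF6 switches on chaperones and the degradation machinery of the ER, while PERK phosphorylates the translation factor eIF2. The kinase GCN2 phosphorylates eIF2 when amino acids are short, and from either kinase the outcome is translation of ATF4, a factor that switches on genes of amino acid supply, the pro-apoptotic factor CHOP, and feedback inhibitors. This shared branch is the integrated stress response. In skin, signalling from a stressed ER is known to accompany the maturation of keratinocytes.

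Of the 3 groups, mut-FTO had the lowest means of ATF3, DDIT3 and TRIB3 and of 8 of the 11 ER chaperones, and the highest mean of the transcription factor ATF5. ATF3, DDIT3 (which encodes CHOP) and TRIB3 were lower in mut-FTO than in Vector past the test. These were 3 of the 40, beside 7.78% of all tested genes. ATF5 was lower in FTO than in mut-FTO past the test, 1 of the 40 beside 2.33%. No gene of the 40 passed between FTO and Vector, where 0.744% of all genes did. All 4 calls were lost without mut-FTO replicate 2, and likewise without mut-FTO replicate 3. All 11 ER chaperones had a higher mean in FTO than in mut-FTO, by a median of 0.48 on the log2 scale, but none passed the test singly in the fit to all 9 libraries. One control library, Vector replicate 3, set much of the spread behind these calls, and the counts without it are given beside each comparison.

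**Figure D1:**
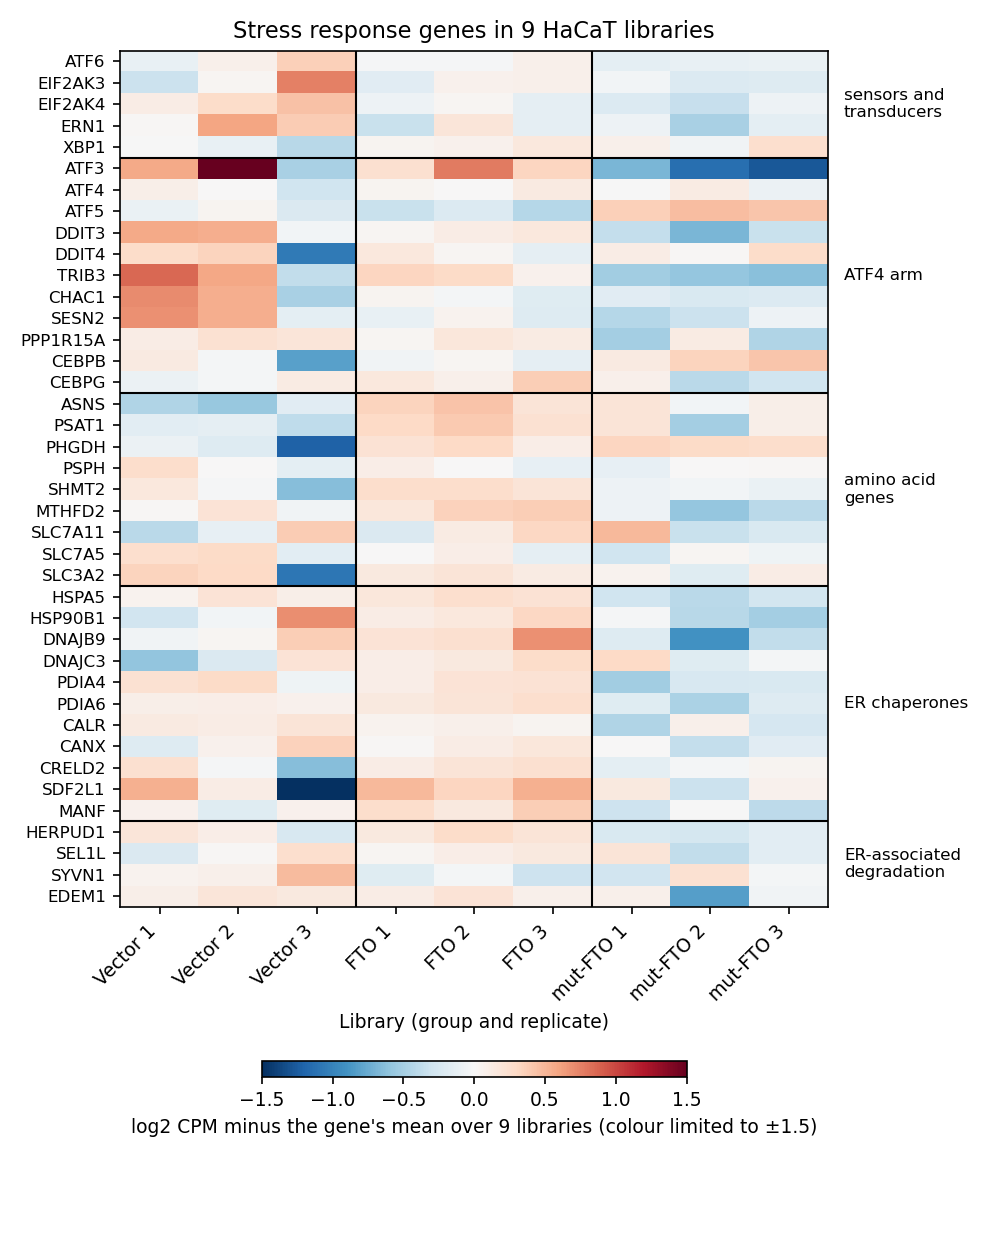
Heat map of the 40 genes (rows, grouped by role) in the 9 libraries (columns); colour gives log2 CPM minus the gene's own mean over the libraries, limited to 1.5 either way. ATF3, DDIT3 and TRIB3 are blue and ATF5 red in all mut-FTO libraries, and Vector 3 differs from Vector 1 and 2 at SDF2L1, ATF3, SLC3A2, DDIT4 and PHGDH.

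Libraries held 32222203 to 37846027 counts, and single members had 155 to 75606 counts in a library, and the SD between libraries exceeded the counting error of the mean count in all but 2 of 120 pairs of gene and group (CHAC1 and ATF6 with mut-FTO). Levels are in CPM, counts scaled to the library size after correction by trimmed means (TMM), and fold changes are on the log2 scale with their standard error (SE); a gene was called when its adjusted p fell below 0.05. RNA of FTO itself was at 17.0 to 25.8 CPM with Vector, 62.6 to 77.1 CPM with FTO and 49.7 to 82.7 CPM with mut-FTO. It thus separated Vector from both other groups, while FTO and mut-FTO overlapped and were told apart by the letters of their columns alone. Vector replicate 3 stood apart: mitochondrially encoded genes took 14.97% of its counts against 3.80% to 7.45% in the other 8 libraries. Loci without a gene name took 2.50% in that library and 3.17% in mut-FTO replicate 2, against at most 0.874% elsewhere. Keratinocyte markers (8 of 8 with counts) summed to 17183 to 20679 CPM with Vector, 19534 to 20308 with FTO and 23199 to 28910 with mut-FTO. The sum rested mainly on keratins: the mean of KRT14 went from 4889 CPM with Vector to 9213 with mut-FTO and that of KRT5 from 3200 to 5144, whereas 3 of the 8 had lower means with mut-FTO, TP63 (389 and 275), ITGA6 (1075 and 813) and CDH1 (186 and 164). Marker sums stayed at or below 8.95 CPM for fibroblasts, 2.54 for melanocytes and 1.73 for endothelial cells. Leukocyte markers summed to 66.3 to 109.5 CPM, of which CD68, also made by other cells, gave 44.4 to 80.4. CD14 had means of 13.7 CPM with Vector, 16.2 with FTO and 27.6 with mut-FTO, whose libraries lay above all others. PTPRC, which marks all leukocytes, had no count in Vector or FTO. The part of the higher keratinocyte sum of mut-FTO in the results below was not tested.

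Sequence elements near the starts of these genes are shown first, since textbook accounts assign them to the separate arms. The ER stress response element (ERSE), CCAATN9CCACG, is the site read by ATF6 and XBP1 with the factor NF-Y. ERSE-II, which is ATTGG, any 1 base and CCACG, is a compact relative. TGATGNAA is the core of the C/EBP-ATF response element (CARE), read by ATF4 with a C/EBP partner. These 3 motifs were chosen after expression values had been seen, and were searched on both strands from 250 bases before to 50 bases after each RefSeq transcript start (GRCh38.p14). A window was found for 37 of the 40 genes; SLC7A11, SHMT2 and PSPH had none. Of the genes shown, ASNS, ATF3, PDIA6 and XBP1 have 2 such windows, of which 1 holds the match, and CANX has 4, of which 3 do; positions count from a start whose window holds it, and counts per gene do not tell the starts apart. ERSE was present in 27 of 35116 windows (0.0769%) and in 7 of the 37 genes, beside 0.0916% of all gene symbols with a window. ERSE-II was in 19 windows (0.0541%) and in 2 genes, beside 0.0696% of symbols. CARE was in 1270 windows (3.62%) and in 6 genes, beside 4.46% of symbols. None of the 16 matches in these genes overlapped another. A match is a description of letters and not a measured binding site.

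The ERSE matches of HSPA5, PDIA6, HSP90B1, CANX, CRELD2 and CALR are shown because these are 6 of the 11 chaperones. All 11 had a higher mean in FTO than in mut-FTO. The median log2 difference was 0.37 in these 6 and 0.49 in the 5 chaperones without ERSE. XBP1, a factor that reads the element, carries one as well, at means of 380 CPM with FTO and 382 with mut-FTO. A link between the motif and these levels was not tested. Capitals mark the motif, each line reads 5′ to 3′ on the strand of the motif, and positions count from the transcript start.
HSPA5 (chr9:125241386-125241414, gene on the minus strand, 66 to 48 bases before the start): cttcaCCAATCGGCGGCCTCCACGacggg
PDIA6 (chr2:10812848-10812876, gene on the minus strand, 86 to 68 bases before): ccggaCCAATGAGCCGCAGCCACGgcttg
HSP90B1 (chr12:103930211-103930239, gene on the plus strand, 194 to 176 bases before): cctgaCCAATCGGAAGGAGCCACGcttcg
CANX (chr5:179698773-179698801, gene on the plus strand, 151 to 133 bases before): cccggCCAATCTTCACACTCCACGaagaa
CRELD2 (chr22:49918549-49918577, gene on the plus strand, motif on the other strand, 80 to 62 bases before): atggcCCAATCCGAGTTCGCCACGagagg
CALR (chr19:12938379-12938407, gene on the plus strand, motif on the other strand, 225 to 207 bases before): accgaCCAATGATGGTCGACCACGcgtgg
XBP1 (chr22:28800598-28800626, gene on the minus strand, 52 to 34 bases before): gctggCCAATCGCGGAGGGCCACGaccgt
HSP90B1 held a second match, on the other strand and nearer to the start. Outside the 5-letter ends, the 9-base spacer differed from gene to gene.

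ERSE-II matches belonged to SDF2L1 and HERPUD1, and HERPUD1 also held a CARE, so this degradation gene carried letters of both kinds. The CARE matches are shown for ASNS and ATF3, the amino acid and ATF4-arm genes with the largest fold changes among their classes in one of the comparisons below, and for HERPUD1.
SDF2L1 ERSE-II (chr22:21642109-21642129, gene on the plus strand, motif on the other strand, 188 to 178 bases before the start): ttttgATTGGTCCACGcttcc
HERPUD1 ERSE-II (chr16:56932020-56932040, gene on the plus strand, 117 to 107 bases before): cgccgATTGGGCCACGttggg
HERPUD1 CARE (chr16:56931961-56931978, gene on the plus strand, motif on the other strand, 176 to 169 bases before): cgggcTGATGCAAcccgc
ASNS CARE (chr7:97872464-97872481, gene on the minus strand, 68 to 61 bases before): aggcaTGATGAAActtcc
ATF3 CARE (chr1:212565211-212565228, gene on the plus strand, 191 to 184 bases before): caggaTGATGGAAggctg
CEBPG, CHAC1 and SLC3A2 held the other CARE matches. Among the genes without any of these letters in the window were DDIT3, TRIB3 and ATF5, which says only that this window does not hold them.

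Around the ERSE of HSPA5, which encodes BiP, the main ER chaperone, the 250 bases before its start read as follows, from chr9:125241344-125241593 on the minus strand, with the match in capitals.
HSPA5 promoter: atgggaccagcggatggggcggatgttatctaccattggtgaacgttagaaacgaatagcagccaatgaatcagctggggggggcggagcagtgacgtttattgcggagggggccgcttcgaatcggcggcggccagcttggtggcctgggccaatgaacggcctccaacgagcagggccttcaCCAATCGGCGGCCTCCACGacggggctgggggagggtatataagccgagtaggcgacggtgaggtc

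ATF3, a stress-induced factor of the ATF/CREB family that ATF4 switches on, was the gene with the largest difference of the 40. It stood at 17.2, 36.6 and 8.23 CPM in the 3 Vector libraries, 13.7, 19.8 and 14.4 CPM with FTO, and 7.14, 5.26 and 4.77 CPM with mut-FTO. Every mut-FTO library lay below every Vector and FTO library, and Vector replicates 2 and 3 were the highest and lowest of the remaining 6. Its log2 fold change in mut-FTO against Vector was -1.85 (SE 0.42; adjusted p = 0.0170 by the quasi-likelihood test of edgeR after Benjamini-Hochberg correction). Between FTO and mut-FTO it was 1.48 (SE 0.42; adjusted p = 0.0958 by the same test), which missed the threshold. Vector replicate 2 carried much of the size: without it the fall was -1.15, with an adjusted p of 0.0636. Leaving out any mut-FTO library also ended the call, with adjusted p values of 0.0539 to 0.0989 at fold changes of -1.74 to -2.05. In bulk RNA, fewer cells that express a gene and less of its RNA per cell cannot be told apart.

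DDIT3, whose product CHOP drives cells under lasting stress towards death, followed the same order of groups. It measured 30.0, 29.6 and 19.7 CPM with Vector, 20.7, 21.9 and 22.7 CPM with FTO, and 15.9, 12.6 and 16.1 CPM with mut-FTO. The mut-FTO libraries were again the lowest 3 of 9, while Vector replicate 3 fell below the FTO libraries and its fellow Vector libraries lay above them. The log2 fold change in mut-FTO against Vector was -0.83 (SE 0.20; edgeR adjusted p = 0.0233), and in FTO against mut-FTO 0.55 (SE 0.20; edgeR adjusted p = 0.213). The first was a call and the second was not. Without Vector replicate 1 or 2, or without any 1 of the mut-FTO libraries, DDIT3 was no longer called against Vector (adjusted p 0.0539 to 0.103).

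TRIB3, a pseudokinase that CHOP and ATF4 induce and that damps both, gave the second largest fall. Its levels were 282, 230 and 120 CPM with Vector, 193, 188 and 161 CPM with FTO, and 107, 103 and 100.2 CPM with mut-FTO. The mut-FTO values were tightly grouped below all others, with Vector replicate 3 the nearest to them. The log2 fold change in mut-FTO against Vector was -1.02 (SE 0.25; edgeR adjusted p = 0.0245). FTO exceeded mut-FTO by 0.81 (SE 0.25), which was not called (edgeR adjusted p = 0.132). The call against Vector was lost without the same 5 libraries as for DDIT3 (adjusted p 0.0592 to 0.104), while its direction held in each case.

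ATF5, a factor translated under eIF2 phosphorylation in the manner of ATF4 and best known for the mitochondrial stress response, ran the opposite way. It was at 34.6, 38.3 and 32.0 CPM with Vector, 29.4, 32.2 and 27.7 CPM with FTO, and 47.7, 51.4 and 49.6 CPM with mut-FTO. All mut-FTO libraries lay above the other 6, and Vector overlapped FTO. ATF5 was lower in FTO than in mut-FTO by a log2 fold change of -0.74 (SE 0.15; edgeR adjusted p = 0.0261), the only call of the 40 in that comparison. In mut-FTO against Vector it was 0.50 (SE 0.15; edgeR adjusted p = 0.0662), above the threshold. The call of FTO against mut-FTO was lost without any 1 of the FTO libraries or without mut-FTO replicate 2 or 3 (adjusted p 0.0939 to 0.150), at fold changes of -0.70 to -0.79.

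**Figure D2:**
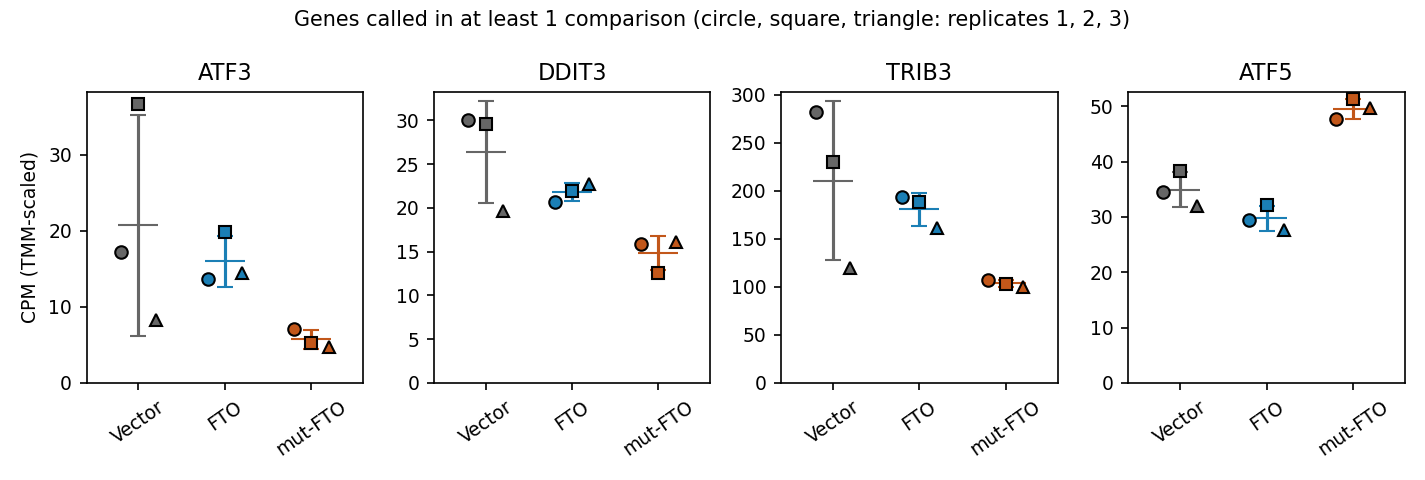
Level in CPM (y axis, from 0) of the 4 called genes by group, with a point for each library (circle, square and triangle for replicates 1, 2 and 3) and the mean ± SD of 3 libraries. In ATF3, DDIT3 and TRIB3 the mut-FTO libraries are the lowest and Vector is the most scattered, and in ATF5 the mut-FTO libraries, at 47.7 to 51.4 CPM, are the highest.

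ATF4 itself did not differ in step with these genes. It had 491, 464 and 376 CPM with Vector, 476, 464 and 510 CPM with FTO, and 461, 506 and 436 CPM with mut-FTO. The groups overlapped, and the log2 fold changes were 0.12 in FTO against Vector (95% interval -0.21 to 0.46) and 0.07 in mut-FTO against Vector (-0.26 to 0.41). ATF4 is controlled mainly by translation, which RNA counts do not measure.

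The rest of the ATF4 arm was mixed. CHAC1, which breaks down glutathione, and SESN2, which restrains the growth kinase mTORC1, were highest in Vector but not in all its libraries. CHAC1 had 38.3, 34.1 and 16.6 CPM in Vector against 20.5 to 24.0 with FTO and 19.9 to 20.7 with mut-FTO. SESN2 measured 74.7, 67.3 and 42.0 CPM with Vector, 40.3 to 47.9 with FTO and 34.2 to 43.9 with mut-FTO. For both, Vector replicates 1 and 2 were above all other libraries and Vector replicate 3 was not. Their log2 fold changes in mut-FTO against Vector were -0.55 (SE 0.26; edgeR adjusted p = 0.239) for CHAC1 and -0.67 (SE 0.21; adjusted p = 0.0742) for SESN2. PPP1R15A, the phosphatase subunit that takes the phosphate off eIF2, was at 178, 193 and 185 CPM with Vector, 168 to 184 with FTO, and 115, 179 and 120 with mut-FTO, where replicate 2 matched the other groups. CEBPB, a dimer partner of ATF4, had its highest values in mut-FTO (820, 940 and 995 CPM) and its lowest in Vector replicate 3 (424 CPM). CEBPG, another partner, spanned 21.0 to 36.1 CPM over the 9 libraries. DDIT4, a stress-induced brake on mTORC1, held 432 to 597 CPM in 8 libraries and 227 CPM in Vector replicate 3.

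The sensors were quieter. EIF2AK4, the kinase GCN2, was at 46.0, 51.3 and 57.6 CPM with Vector, 40.4, 43.2 and 38.8 with FTO, and 36.8, 33.3 and 40.2 with mut-FTO. Every Vector library lay above all others, yet the log2 fold change of -0.49 in mut-FTO against Vector (SE 0.16) had an edgeR adjusted p of 0.0822. ERN1, which encodes IRE1, also had its lowest value in mut-FTO and its highest in Vector (8.90 to 11.8 against 12.7 to 18.9 CPM), with a log2 fold change of -0.58 and an adjusted p of 0.136 by that test. EIF2AK3, the kinase PERK, was at 7.10, 9.03 and 15.1 CPM with Vector and at 7.67 to 9.38 CPM in the other 6 libraries, so that Vector replicate 3 alone stood out. ATF6 ranged from 65.1 to 76.1 CPM in 8 libraries and reached 93.0 CPM there. XBP1 lay at 268 to 357 CPM with Vector, 368 to 398 with FTO and 345 to 424 with mut-FTO; its RNA total does not show how much of it is spliced.

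Amino acid genes were higher in FTO than in Vector more often than not. ASNS, asparagine synthetase, measured 75.3, 69.7 and 91.5 CPM with Vector, 130, 139 and 118 CPM with FTO, and 117, 100.5 and 109 CPM with mut-FTO. Vector was below both other groups without overlap, and FTO was above mut-FTO by a narrow margin. The log2 fold change in FTO against Vector was 0.71 (SE 0.16, 95% interval 0.37 to 1.05; edgeR adjusted p = 0.0653) and in mut-FTO against Vector 0.47 (SE 0.16; adjusted p = 0.0939). PHGDH, the first enzyme of serine synthesis, measured 186, 173 and 85.0 CPM with Vector, 229, 242 and 212 with FTO, and 247, 240 and 237 with mut-FTO. It was higher in both FTO constructs than in any Vector library, with log2 fold changes of 0.62 (adjusted p = 0.326) and 0.70 (adjusted p = 0.0981) by the edgeR test.

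Of the other enzymes of the serine and one-carbon route listed here, only MTHFD2 had all its mut-FTO libraries below all Vector libraries. In SHMT2 and PSPH, mut-FTO overlapped Vector. PSAT1, the next enzyme after PHGDH, was at 131 to 156 CPM with Vector, 201 to 225 with FTO, and 195, 121 and 182 with mut-FTO. Like PHGDH it had a higher mean in mut-FTO than in Vector, but mut-FTO replicate 2 lay below every Vector library. MTHFD2, a mitochondrial folate enzyme, was at 79.0, 90.1 and 75.3 CPM with Vector, 87.9, 99.6 and 101 with FTO, and 74.2, 52.5 and 59.2 with mut-FTO. Its mut-FTO libraries were the lowest 3 of 9, and the log2 fold change of FTO against mut-FTO was 0.63 (SE 0.17; edgeR adjusted p = 0.0748). SHMT2, which feeds one-carbon units from serine, had 307 to 322 CPM with FTO above 250 to 262 with mut-FTO, and 172 CPM in Vector replicate 3 against 265 and 300 in its fellows. PSPH, the last enzyme of serine synthesis, stayed within 24.4 to 32.4 CPM everywhere. Of the transporters, SLC7A5 and its partner SLC3A2, which together carry large neutral amino acids, spanned 1414 to 2114 and 555 to 790 CPM outside Vector replicate 3, and stood at 1553 and 296 CPM in it. SLC7A11, the cystine transporter, spanned 12.8 to 23.8 CPM with all groups overlapping.

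The ER chaperones all had a higher mean in FTO than in mut-FTO. HSPA5 was at 840, 932 and 859 CPM with Vector, 911, 960 and 942 CPM with FTO, and 659, 611 and 667 CPM with mut-FTO. The mut-FTO libraries lay below all 6 others, whose groups overlapped. Its log2 fold change was -0.44 in mut-FTO against Vector (SE 0.14; edgeR adjusted p = 0.0839) and 0.54 in FTO against mut-FTO (SE 0.14, 95% interval 0.23 to 0.85; adjusted p = 0.0767). PDIA4 and PDIA6, disulfide isomerases that help proteins fold, had the same order: PDIA4 was at 279 to 354 CPM with Vector, 312 to 337 with FTO and 202 to 249 with mut-FTO. PDIA6 measured 335 to 343 CPM with Vector, 353 to 379 with FTO and 229 to 280 with mut-FTO. For both, mut-FTO did not overlap the other groups, and FTO exceeded mut-FTO by 0.50 (edgeR adjusted p = 0.141) and 0.48 (adjusted p = 0.121) on the log2 scale.

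DNAJB9, a co-chaperone of BiP that IRE1 and XBP1 induce, gave the largest difference among the chaperones. It was at 16.4, 17.3 and 22.0 CPM with Vector, 19.6, 20.1 and 27.4 CPM with FTO, and 14.9, 9.06 and 13.2 CPM with mut-FTO. The mut-FTO libraries were the lowest, and the log2 fold change of FTO against mut-FTO was 0.85 (SE 0.23; edgeR adjusted p = 0.0808). MANF, a small ER protein that stressed cells secrete, was at 76.9 to 89.6 CPM with FTO and 53.0 to 69.2 with mut-FTO, and Vector, at 61.4 to 72.6, overlapped mut-FTO. HSP90B1, the ER form of HSP90, was at 402 to 459 CPM with FTO, 261 to 366 with mut-FTO and 303, 361 and 601 with Vector. CALR and CANX, lectin chaperones of glycoproteins, had 1175 to 1205 and 413 to 459 CPM with FTO and 834 to 1203 and 317 to 411 CPM with mut-FTO. SDF2L1 and CRELD2, both ER-resident factors of the response, were lowest in Vector replicate 3, at 21.0 and 51.5 CPM, with 61.7 to 112 and 72.6 to 94.8 CPM in the other 8 libraries. DNAJC3, another BiP co-chaperone, had its lowest group mean in Vector (32.6, 42.5 and 57.0 CPM). All groups overlapped, with FTO at 52.6 to 59.5 CPM and mut-FTO at 43.3 to 60.8.

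None of the 4 degradation genes was called in any comparison in the fit to all 9 libraries (edgeR; at an unadjusted p below 0.05, HERPUD1 alone passed, between FTO and mut-FTO). HERPUD1, which gathers the retrotranslocation complex, was at 71.4 to 95.9 CPM with Vector, 93.5 to 103 with FTO and 70.2 to 75.4 with mut-FTO, a difference between FTO and mut-FTO of 0.43 on the log2 scale (SE 0.15; edgeR adjusted p = 0.204). FTO did not overlap mut-FTO in this gene. SYVN1, the ubiquitin ligase of this route, was at 77.1 to 103 CPM with Vector, 59.7 to 72.5 with FTO and 60.6 to 86.5 with mut-FTO. Every FTO library lay below every Vector library, at a log2 fold change of -0.39 (SE 0.18; edgeR adjusted p = 0.426). Its partner SEL1L spanned 33.3 to 51.2 CPM over the 9 libraries with all groups overlapping. EDEM1, which picks misfolded glycoproteins, was at 34.8 to 38.1 CPM in all libraries but mut-FTO replicates 2 and 3, at 18.6 and 31.8 CPM.

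**Figure D3:**
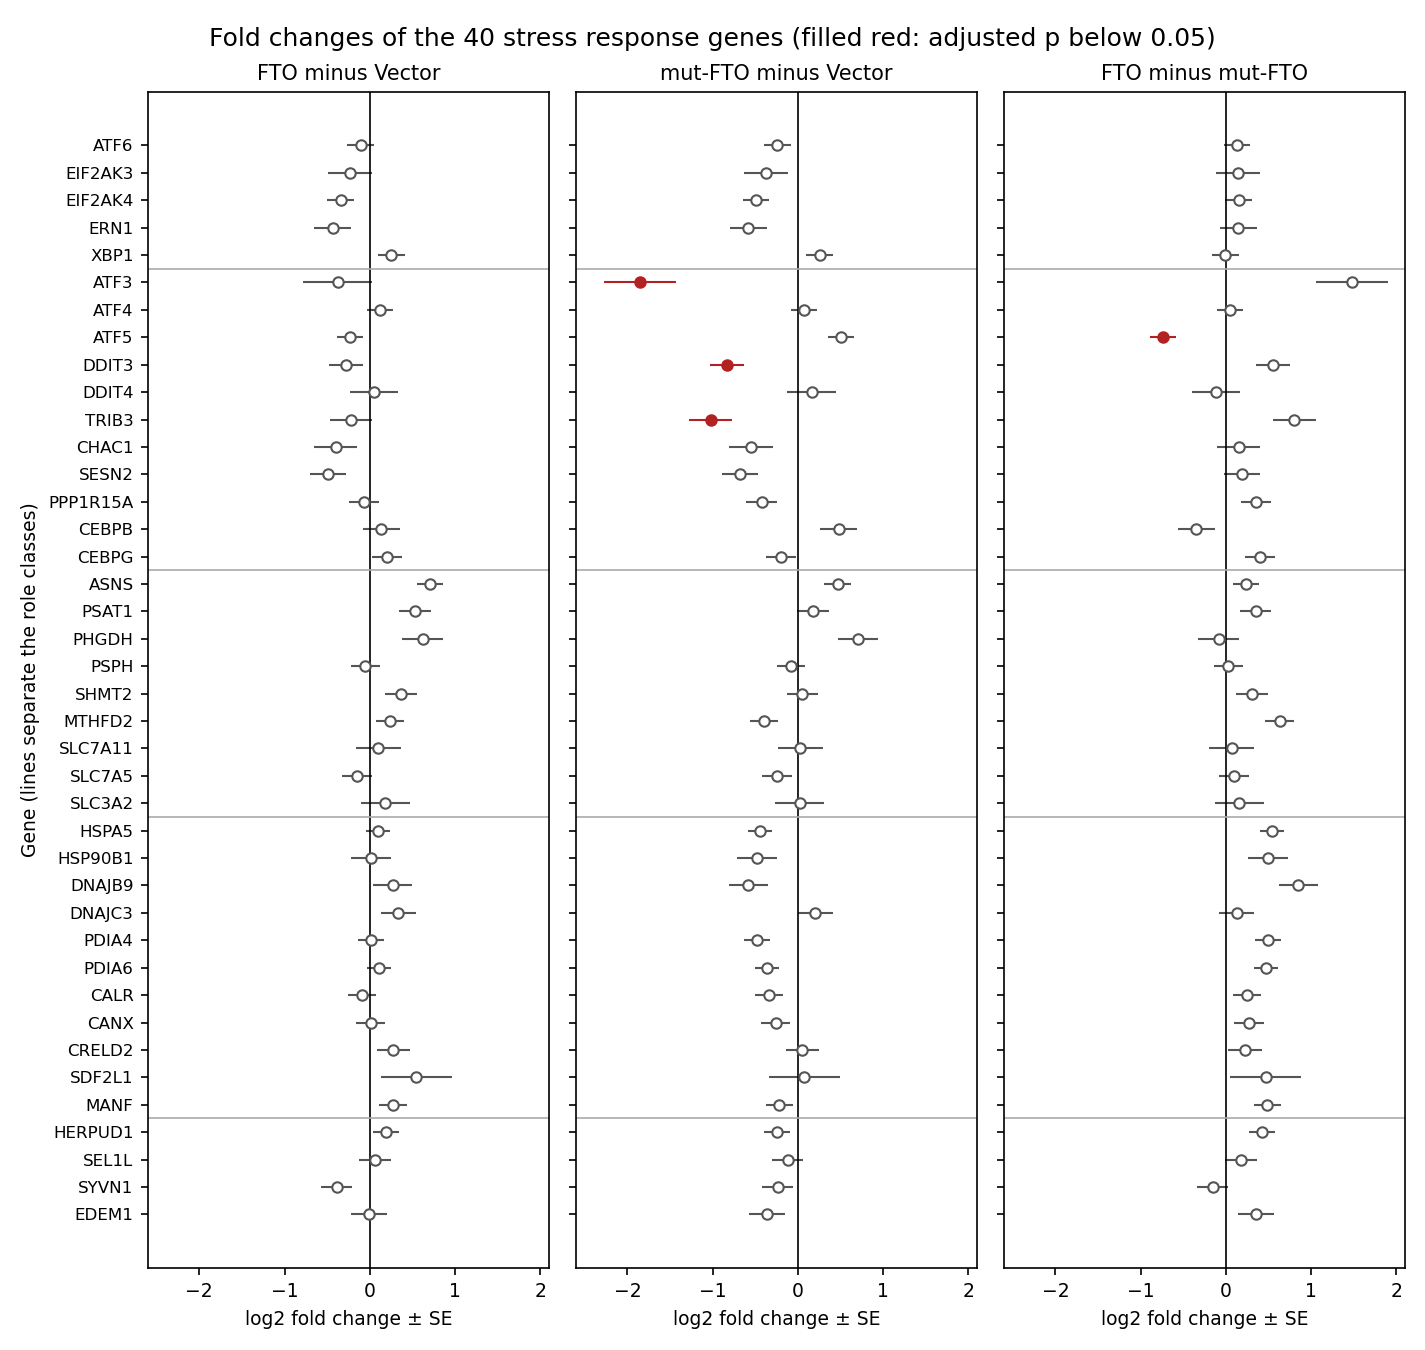
Log2 fold change ± SE (x axis) of each of the 40 genes (y axis, lines between role classes) in the 3 comparisons; filled red points have an adjusted p below 0.05. The filled points are ATF3, DDIT3 and TRIB3 below 0 with mut-FTO minus Vector and ATF5 below 0 with FTO minus mut-FTO, and all 11 ER chaperones lie right of 0 with FTO minus mut-FTO.

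Wild-type FTO against Vector compares cells carrying the enzyme's construct with cells carrying the empty vector. None of the 40 was called, where 0.744% of all tested genes were (102). At an unadjusted p below 0.05 the edgeR test gave ASNS, PSAT1 and PHGDH as higher and SESN2 as lower, 4 of 40 beside 11.9% of all genes, and DESeq2 called ASNS alone (adjusted p = 0.00231), where it called 2.67% of all genes. Median log2 fold changes were -0.22 over the ATF4 arm, 0.24 over the amino acid genes and 0.11 over the ER chaperones, while over all genes the median was 0.00. In 10 of 11 ER chaperones and 7 of 9 amino acid genes the FTO mean was the higher, against 49.8% of all genes. Without Vector replicate 3 the test called 4 of the 40 (3.41% of all genes): ASNS as higher, at 0.80 with an adjusted p of 0.00166, and TRIB3, CHAC1 and SESN2 as lower, at -0.52, -0.71 and -0.72.

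The mutant against Vector called 3 of the 40 genes, all lower, beside 7.78% of all tested genes (4.51% as lower), so the share of these genes called was near that of all genes. At an unadjusted p below 0.05, 16 of 40 passed, 12 of them lower, beside 21.1% of all genes and 11.0% as lower. The median log2 fold change was -0.43 over the ATF4 arm, 0.03 over the amino acid genes and -0.34 over the ER chaperones. In 8 of 11 ER chaperones the mean was lower in mut-FTO, against 50.1% of all genes. In 5 of the 11 the libraries did not overlap, all in that direction, beside 11.8% of all genes in it. Without Vector replicate 3, 15 of the 40 were called (15.0% of all genes): 12 as lower (8.41% of all genes), among them ATF3 at -2.24, TRIB3 at -1.31, DDIT3 at -1.01, SESN2 at -0.90, CHAC1 at -0.85, PDIA4 at -0.59 and HSPA5 at -0.46, and 3 as higher, ASNS at 0.58, ATF5 at 0.44 and PHGDH at 0.42. DESeq2 on all 9 libraries called 9 (12.3% of all genes). The comparison shares its Vector libraries with the one before it, so shifts in those 3 libraries move both.

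The wild type against the mutant compares constructs that differ in demethylase activity, which cannot be told apart here from other traits of the cells. This comparison uses no Vector level, although in the fit to 9 libraries the Vector libraries share in the estimate of the spread. It called 1 gene of 40, ATF5, beside 2.33% of all tested genes and 1.13% as lower. At an unadjusted p below 0.05, 12 of 40 passed, 11 of them higher in FTO, beside 14.0% of all genes and 6.69% as higher. Median log2 fold changes were 0.48 over the ER chaperones, 0.19 over the ATF4 arm, 0.16 over the amino acid genes and 0.00 over all genes. FTO lay above mut-FTO without overlap in 9 of the 11 chaperones, where 14.8% of all genes did, and over all 40 genes 21 did. With the 6 libraries of these groups alone, 13 of the 40 were called (9.10% of all genes). Of these, 12 were higher in FTO (4.24% of all genes): the chaperones HSPA5, HSP90B1, DNAJB9, PDIA4, PDIA6, SDF2L1 and MANF, the degradation gene HERPUD1, the ATF4-arm genes ATF3, DDIT3 and TRIB3, and MTHFD2. ATF5 was again lower. Their log2 fold changes moved by little: HSPA5 was at 0.54 (adjusted p = 0.00508), TRIB3 at 0.81 (0.000369) and ATF3 at 1.48 (0.000303), all by edgeR. The fit without Vector replicate 3 also called 13 (10.2% of all genes), with CEBPB as lower in place of SDF2L1 as higher, and DESeq2 called 8 (5.48% of all genes).

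Set against each other, the ATF4-arm and amino acid genes together did not keep one distance from the ER chaperones. Each gene's log2 CPM was centred on its mean over the 9 libraries and averaged over a class. The ATF4 arm averaged 0.35, 0.40 and -0.33 with Vector, 0.05, 0.12 and 0.01 with FTO, and -0.18, -0.21 and -0.20 with mut-FTO. The ER chaperones averaged 0.02, 0.04 and -0.05 with Vector, 0.16, 0.19 and 0.30 with FTO, and -0.15, -0.30 and -0.21 with mut-FTO. The chaperone means thus fell into 3 separate bands, FTO above Vector above mut-FTO, while Vector spanned the whole range of the ATF4 arm. In Vector replicate 3 this mean averaged opposed genes, with SDF2L1 at -1.87 and CRELD2 at -0.64 but HSP90B1 at 0.70. Nor did each chaperone keep that order: CALR had its highest group mean in Vector, and DNAJC3, CRELD2 and SDF2L1 had their lowest there. The amino acid genes averaged 0.14 to 0.24 with FTO, -0.15 to 0.07 with mut-FTO and -0.01, -0.03 and -0.39 with Vector.

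The difference of both sets, ATF4 arm and amino acid genes minus ER chaperones, was 0.17, 0.17 and -0.31 with Vector, -0.07, -0.01 and -0.23 with FTO, and 0.08, 0.11 and 0.08 with mut-FTO. FTO was below mut-FTO in all libraries, and Vector replicates 1 and 2 were above both while Vector replicate 3 was the lowest of all 9. The mean ± SD of this difference (n = 3 libraries) was 0.01 ± 0.27 for Vector, -0.10 ± 0.11 for FTO and 0.09 ± 0.02 for mut-FTO. These averages describe the chosen genes, and no p is given for them. Between FTO and mut-FTO the medians of both sets lay on the same side, at 0.17 over the 20 ATF4-arm and amino acid genes and 0.48 over the 11 chaperones, with ATF5 called on the other side.

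**Figure D4:**
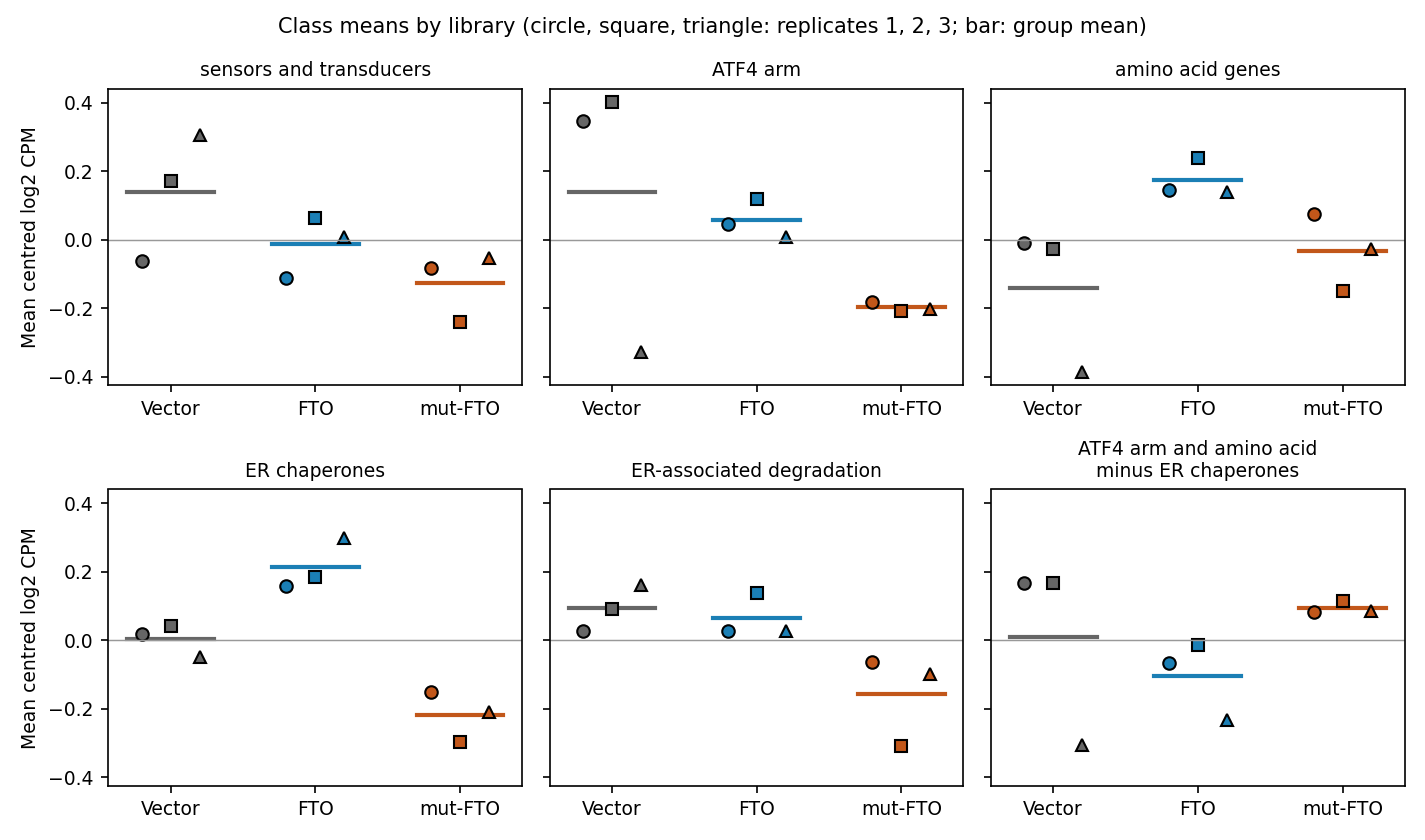
Mean centred log2 CPM (y axis) of each role class by group, with a point per library (circle, square and triangle for replicates 1, 2 and 3) and a bar for the group mean; the last panel gives ATF4-arm and amino acid genes minus ER chaperones. The chaperone points form 3 separate bands, and in the ATF4 arm the Vector points run from -0.33 to 0.40.

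Vector replicate 3 differed from the other Vector libraries at some of these genes far more than at others. It lay at least 2-fold below their mean in 7 of the 40, SDF2L1, ATF3, SLC3A2, DDIT4, CHAC1, TRIB3 and PHGDH, by -2.20 to -1.08 on the log2 scale, and in none at least 2-fold above. Over all tested genes 10.9% lay 2-fold below and 8.87% 2-fold above. EIF2AK3 and HSP90B1 were the highest there relative to their fellows, by 0.91 and 0.86. This is the library with 14.97% mitochondrial counts, and the part of that in the levels of these genes was not tested. The median SD of log2 CPM over the 40 genes was 0.24 with Vector, 0.09 with FTO and 0.17 with mut-FTO, against 0.37, 0.14 and 0.23 over all genes.

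**Figure D5:**
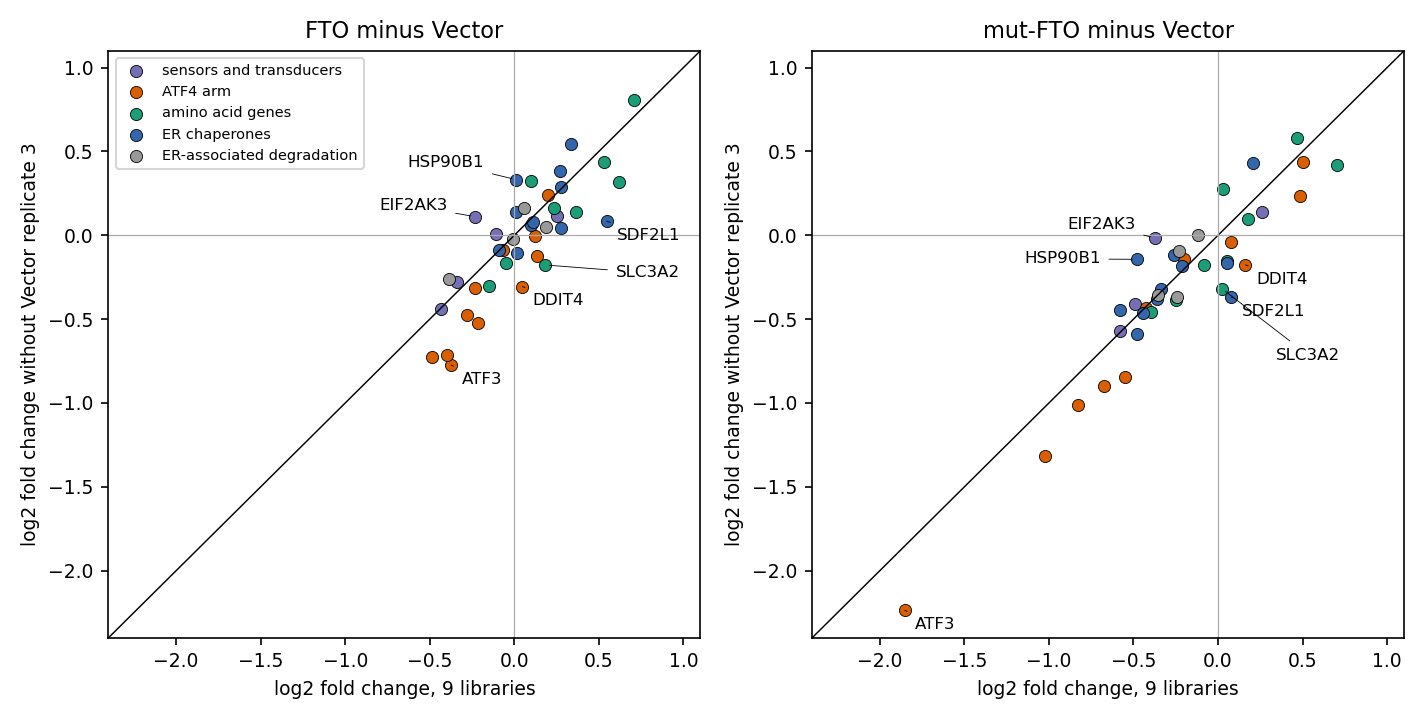
Log2 fold change of the 40 genes against Vector with all 9 libraries (x axis) and without Vector replicate 3 (y axis), for FTO (left) and mut-FTO (right), coloured by role; the diagonal marks equal values and the 6 genes that moved most are named. All ATF4-arm genes but CEBPG lie below the diagonal: ATF3 goes from -1.85 to -2.24 with mut-FTO minus Vector.

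Further genes of the same pathways were counted from lists. Of 29 further ATF4 targets, 28 were tested, and 5 were called in mut-FTO against Vector, beside 7.78% of all genes, and none in the other comparisons (edgeR). At an unadjusted p below 0.05, 2 passed in FTO against Vector, beside 11.9% of all genes, and 11 in FTO against mut-FTO, beside 14.0%. GDF15, a secreted stress cytokine, stood at 3.80, 4.14 and 2.96 CPM with Vector, 1.06, 1.34 and 1.86 with FTO, and 0.11, 0.65 and 0.06 with mut-FTO. The groups did not overlap, and its log2 fold change in mut-FTO against Vector was -3.79 (SE 0.62; edgeR adjusted p = 0.00242), at counts so low that the size is uncertain. VEGFA, a growth factor for vessels, was lower by -0.90 (means of 332 CPM for Vector and 178 for mut-FTO; adjusted p = 0.00383), and both kept their call with each library left out in turn. NUPR1, a stress-induced chromatin protein, was lower by -1.22 and JDP2, a repressor of the AP-1 family, higher by 0.61. MAP1LC3B, an autophagy gene named here after its value was seen, was lower by -0.54. The calls of NUPR1, JDP2 and MAP1LC3B were lost without 2, 7 and 7 of the 9 libraries. In mut-FTO against Vector the median over the list was -0.26 on the log2 scale, and without Vector replicate 3 the test called 13 of the 28, 11 of them lower, beside 15.0% of all genes and 8.41% as lower.

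The machinery around eIF2 and the ER gave few calls. EIF2S3, the gamma subunit of eIF2, was called in both comparisons with mut-FTO and was the only one of 15 genes called in either (7.78% of all genes against Vector and 2.33% against FTO). It measured 143, 159 and 163 CPM with Vector, 135, 137 and 140 with FTO, and 88.9, 76.5 and 82.7 with mut-FTO. All mut-FTO libraries were below the rest, by -0.91 against Vector (SE 0.14; edgeR adjusted p = 0.00151), while FTO exceeded mut-FTO by 0.73 (SE 0.14; adjusted p = 0.0164). The call against Vector held with each library left out, and that against FTO was lost without 5 of the 9. EIF2S3 has a near-identical copy elsewhere in the genome, so its reads may be split between them. Of 38 further ER folding and degradation genes, 36 were tested and 3 were called in mut-FTO against Vector, all lower, a share near the 7.78% of all genes (4.51% as lower): SEC24D, a coat protein of ER exit, at -0.85, PDIA3, a disulfide isomerase of glycoproteins, at -0.66, and MBTPS2, the protease that completes ATF6 cleavage, at -1.02. Their calls were lost without 7, 7 and 6 of the 9 libraries. None of these 36 was called in the other comparisons (4 at an unadjusted p below 0.05 in each, beside 11.9% of all genes in FTO against Vector and 14.0% in FTO against mut-FTO).

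No aminoacyl-tRNA synthetase of 18, many of them ATF4 targets, was called in any comparison by edgeR, with 1 at an unadjusted p below 0.05 between FTO and Vector, 3 between mut-FTO and Vector and 1 between FTO and mut-FTO, beside 11.9%, 21.1% and 14.0% of all genes. Their median log2 fold changes were 0.11, -0.08 and 0.11 in that order. A list of 13 heat shock genes whose products work outside the ER held HSF1, cytosolic chaperones and the mitochondrial chaperonins HSPD1 and HSPE1. Of these 13 genes, 1 was called. The call was in mut-FTO against Vector, where 7.78% of all genes were called and 3.27% as higher. The gene was HSPB1, a small heat shock protein of differentiating keratinocytes, higher in mut-FTO by 0.63 (edgeR adjusted p = 0.0466). Its means were 1271 CPM with mut-FTO and 823 with Vector, and its call was lost without 7 of the 9 libraries. That list's medians were 0.12, 0.02 and 0.03 in the same order.

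For the 3 marker genes of the response, the tested genes outside the list with the nearest course of log2 CPM over the 9 libraries were looked up by Pearson's r, as a description. For ATF3 they were CTTN, a cortical actin protein (r = 0.98), TWNK, the helicase of mitochondrial DNA (0.96), and ZBED6CL (0.95). CTTN had a mean of 388 CPM with Vector, 383 with FTO and 321 with mut-FTO. For DDIT3 they included PSEN2, a subunit of gamma-secretase (0.97), and PUDP (0.97). PSEN2 fell in the same order of groups, with means of 16.5, 9.32 and 4.21 CPM. For ATF5 they were FAM102A (0.97), NEFL, a neurofilament, and EEF1A2, an elongation factor. NEFL had means of 11.5 CPM with Vector, 9.21 with FTO and 33.2 with mut-FTO, and EEF1A2 168.8, 137 and 293. The 9 points share 3 groups, so a common group difference is enough for a high r.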

How the data were processed

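Poly(A) RNA of 9 HaCaT libraries was analysed from the table of whole-number counts per gene that the authors deposited. The submitters' processing notes name HISAT2, StringTie and mm10, a mouse build, although cells and symbols are human, so coordinates are printed from RefSeq (GRCh38.p14) only. Tool versions, annotation and strandedness were not given in the sources used here. All columns of values were used (0 left out), and no pair of libraries agreed within sampling noise. The 40 genes, the role classes and the pathway lists were chosen with earlier results of these data known. The rule for named genes accounts for every member, gives called ones and ATF3, DDIT3 and ATF5 in every library, names up to 4 called genes of lowest p per pathway list and comparison, and the 3 nearest patterns of each marker, of which 1 is not reported here. The synthetases matched by older symbols (18 of 18), as did 1 gene of the eIF2 list.

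The test was that of edgeR 4.0.16 (R 4.3.3): filterByExpr (minimum count 10, minimum total 15) kept 13713 genes, TMM factors scaled libraries, and a robust quasi-likelihood fit of all 9 libraries gave each comparison, adjusted by Benjamini-Hochberg over all genes tested. Log2 CPM used a prior count of 2. The script was checked on simulated counts. Alternatives were RLE size factors, DESeq2 1.42.0, no filter, a replicate block, a fit to the 6 samples compared, each library left out, and Vector replicate 3 and mut-FTO replicate 2 left out together. Motifs were searched with Python 3.11.15.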

Additional observations from a re-analysis of the deposited data

How the results depend on the processing

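Directions of the 4 called differences (ATF3, DDIT3 and TRIB3 in mut-FTO against Vector, ATF5 in FTO against mut-FTO) held in all 15 alternatives. The compared libraries did not overlap in these 4 genes, so leaving out a library was bound to keep the direction. All 4 calls were lost without mut-FTO replicate 2, and also without mut-FTO replicate 3. Called members moved as follows; the cause was not tested. In FTO against Vector the count was 0, with 1 by DESeq2, where 2.67% of all genes were called. It was 7 without both Vector replicate 3 and mut-FTO replicate 2 (7.55% of all genes). Leaving out 1 library gave 0 to 4, the highest without Vector replicate 3 (3.41%). In mut-FTO against Vector the 3 became 9 by DESeq2 (12.3%), 1 with only the 6 samples (4.63%) and 14 without both libraries (17.3%). Leaving out 1 library gave 0 to 15, the highest without Vector replicate 3 (15.0%). In FTO against mut-FTO the 1 became 8 (5.48%), 13 (9.10%) and 14 (8.60%) in the same order. There, leaving out 1 library gave 0 to 13, the highest without Vector replicate 3 (10.2%). Over all genes the 102 of FTO against Vector became 366 by DESeq2, 41 with only the 6 samples and 1050 without both libraries (27 to 476 on leaving out 1 library); the 1067 of mut-FTO against Vector became 1680, 621 and 2401 (609 to 2089); and the 319 of FTO against mut-FTO became 751, 1218 and 1196 (71 to 1427). DDIT3 and TRIB3 lost their calls with only the 6 samples (adjusted p 0.0883 and 0.0700). Same-numbered libraries did not deviate together (correlations -0.127 to 0.106), but with 3 libraries a group this cannot exclude that the numbers pair the samples. With the replicate number as a block, 67 genes were called in FTO against Vector. No member was called in FTO against mut-FTO, beside 1.62% of all genes, and 2 members in mut-FTO against Vector, beside 5.93%. DDIT3 and ATF5 lost their calls in that fit (edgeR adjusted p 0.0547 and 0.0659). Depth did not limit these genes, which had at least 155 counts in a library.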
